A study of Mus musculus with 9 samples.

Results

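The effect of an extract of Vigna umbellata, the rice bean, on the brain of ob/ob mice was read from 6 of the 9 arrays of this series. They are the 3 arrays of ob/ob mice that received the extract (VE) and the 3 arrays of ob/ob mice that received vehicle. Members were chosen by array title, and every one of the 22206 probe sets on these arrays entered the comparison. VE was given by oral gavage at 100 mg/kg body weight for 6 weeks, up to day 42. All mice were males of the C57BL/6JHamSlc background, 6 weeks old before 1 week of acclimatization, on standard chow, and no brain region is named. The ob/ob mice, with or without VE, carry the obese allele on both chromosomes. The 3 further arrays are from C57BL/6JHamSlc-+/+ mice given vehicle. For many genes they are printed beside the others as the level in lean animals. Nothing in the labels says whether an array stands for 1 animal or a pool, so p-values measure the spread between these samples, which may in part be technical.

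The ob allele removes leptin, the hormone by which fat tissue signals energy stores to the hypothalamus, and the mice overeat and become obese and insulin resistant. Leptin also acts on brain growth and on glia, and ob/ob brains are known to be smaller and less myelinated than lean brains. Rice bean is a legume rich in polyphenols, which is the usual reason to feed its extract in models of metabolic disease. The comparison asks which brain transcripts differ between treated and untreated ob/ob mice.

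Values are log2 signals, so a difference of 1 is a 2-fold difference. The labelled tissue was checked against its markers: Snap25, Syt1 and Mbp, which mark synapses and myelin, lay between 14.91 and 19.37 on every array, while the adipocyte genes Adipoq, Plin1 and Fabp4 lay between 3.95 and 6.30. The series' design text names white fat where the sample labels name brain. VE array 2 stood apart from the other 8. Its median was 7.01 against 7.12 to 7.23, its highest value 16.37 against 19.01 to 19.93, and its correlation with any other array 0.962 to 0.970 against 0.979 to 0.993 among the rest. Bright transcripts read low there: Syt1, the calcium sensor of synaptic vesicles, gave 15.47 there, against 18.09 to 19.37 elsewhere. Gene values are therefore given on deposited values and, for many genes, also after quantile normalization, which forces the same distribution on all arrays, or without VE array 2. Medians of gene lists are also given without that array where it moved them by over 1.5 times or turned their sign.

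Most of the probe sets called were lower with VE. At an adjusted p under 0.05 (limma over all 9 arrays, Benjamini-Hochberg), 108 of 22206 probe sets, 0.486%, differed between VE and vehicle in ob/ob brain. Of these, 3 were higher with VE (0.0135% of probe sets) and 105 lower (0.473%), with sizes of at least 1.01 on the log2 scale. At an unadjusted p under 0.05, which is also the rule of the design text once a fold over 1.1 is asked for, 2962 differed (13.3%), 712 higher (3.21%) and 2250 lower (10.1%). Quantile normalization moved this split: 324 probe sets (1.46%) were called, 60 higher (0.27%) and 264 lower (1.19%), so higher calls went from 2.78% to 18.5% of all calls. The split at an unadjusted p under 0.05 depended on the scaling: 1725 were higher and 2026 lower after quantile normalization, 1567 and 2073 with cyclic loess, 1573 and 1439 with arrays centred on their medians, and 2211 and 1812 with arrays scaled to equal SD, so the last 2 turned the majority round. Of the 108 calls on deposited values, 107 were shared with the 324. Without VE array 2, 403 probe sets were called (1.81%), 122 higher (0.549%) and 281 lower (1.27%), and these held all 108. With quantile normalization and without that array there were 418 (1.88%), 117 higher (0.527%) and 301 lower (1.36%).

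The number of calls depended on which arrays and probe sets entered the fit. Leaving out ob/ob vehicle array 1, 2 or 3 left 0 calls by limma, with 2848, 2212 and 1999 probe sets at an unadjusted p under 0.05. Leaving out wild-type array 2 or 3 also left 0, with 2642 and 2621 unadjusted, and leaving out wild-type array 1 left 16. Without VE array 1 or 3 there were 134 and 96 calls. A fit to the 6 arrays of the 2 groups alone made 0 calls, with 2281 at an unadjusted p under 0.05 and a smallest adjusted p of 0.138. When only the 19572 probe sets with 1 gene symbol were adjusted together, 0 passed, 2381 had an unadjusted p under 0.05, and the smallest adjusted p was 0.0747. Each call named below is thus a call of the 9-array fit over all probe sets, and is lost in the settings that left 0. Of the 19 called genes named here, 3 were also called without wild-type array 1, 14 without VE array 1, 8 without VE array 3 and 9 with each array centred on its median; Nr4a2, Csprs and Olfr638 were called in each of these. Of 111 genes followed across settings, 22 that missed the threshold on deposited values passed it after quantile normalization, and 22 did without VE array 2.

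The median change was also read along mean level. In 20 bins of equal size by mean level over 9 arrays, the median change on deposited values was 0.00 in the dimmest bin, -0.14 in the bin around a level of 6.96, 0.01 around 10.99 and -0.20 in the brightest, around 13.88. After quantile normalization the bin medians lay between -0.02 and 0.05. The median over all probe sets was -0.07 on deposited values and 0.02 after quantile normalization. Each gene list below is set against the probe sets of like mean level, its "like-level" median. Without VE array 2 the median of the brightest bin was 0.20, so medians of bright lists without that array are read against their own like-level value.

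**Figure D1:**
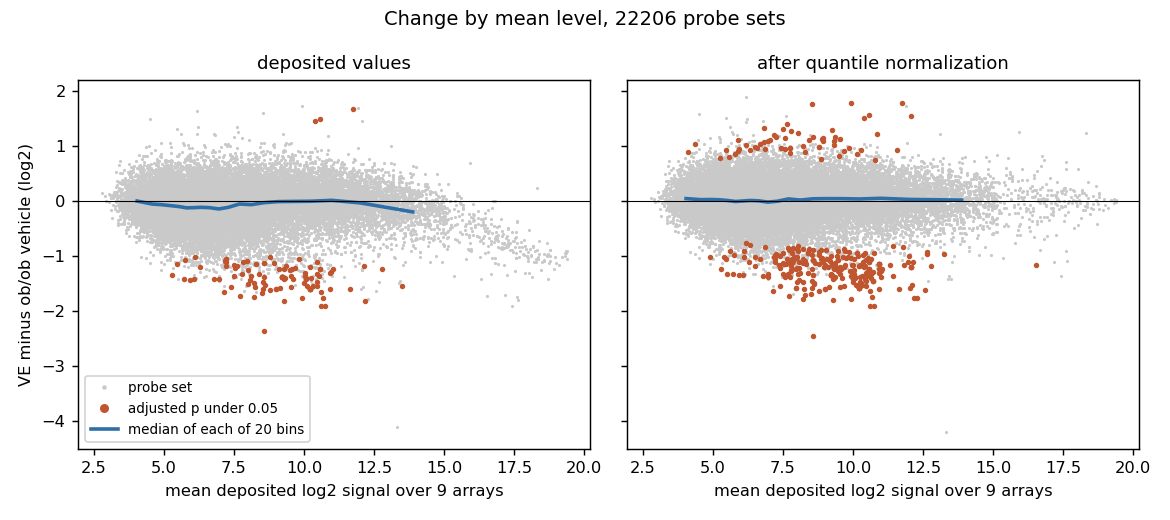
Change with VE (VE minus ob/ob vehicle, log2) against the mean deposited log2 signal over 9 arrays, 1 grey point per probe set, with probe sets at adjusted p under 0.05 in orange and the median of each of 20 bins as a blue line. On deposited values 3 called probe sets lie above 0 and 105 below, and the brightest bin has a median of -0.20; after quantile normalization 60 lie above and 264 below.

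Nr4a2 (Nurr1), an orphan nuclear receptor that dopamine neurons need and that neurons induce on activity, fell with VE. It read 11.39, 11.03 and 10.61 on VE arrays 1 to 3, against 12.67, 12.99 and 12.83 on ob/ob vehicle arrays and 12.16, 13.08 and 12.69 on wild-type arrays. All 3 VE arrays lay below all 6 others. With VE, Nr4a2 fell by 1.82 on the log2 scale (SE 0.267, 3.53-fold, adjusted p = 0.0334), with changes of -1.77 after quantile normalization (adjusted p = 0.0163) and -1.83 without VE array 2 (adjusted p = 0.0102). None of the 1110 probe sets of like level had a more negative change. It was called in 14 of the 21 alternative settings. Against the wild-type arrays the difference was -1.63 (adjusted p = 0.0472), in a comparison where 22 probe sets, 0.0991%, were called.

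The other members of the Nr4a family were not called on deposited values. Nr4a3 (NOR-1), its activity-induced relative, read 12.16, 12.38 and 12.29 with VE, 14.11, 13.51 and 13.57 in ob/ob vehicle and 13.40, 14.89 and 14.39 in wild type. The groups did not overlap, but the change of -1.45 (SE 0.320) missed the threshold (adjusted p = 0.0649; 0.0862 after quantile normalization), and passed it without VE array 2 (-1.5, adjusted p = 0.0319). Nr4a1 (Nur77), the member most often used as a marker of acute activity, read 9.33, 9.62 and 9.43 with VE against 9.83, 8.51 and 9.28. Its groups overlapped, with a change of 0.25 and a 95% interval from -0.35 to 0.86. Whether Nr4a2 and Nr4a1 differ in their change was not tested.

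The promoters of these receptors are shown because all 3 are known as targets of CREB, which binds the cAMP response element, yet their signals differed as described. The 250 bases before each annotated start are given from RefSeq (GRCm38.p6), 5′ to 3′ on the gene's strand, with the core of the element, TGACG on either strand, in capitals. Nr4a2 lies at chr2:57124004-57124253 on the minus strand, Nr4a3 at chr4:48045055-48045304 on the plus strand and Nr4a1 at chr15:101266596-101266845 on the plus strand.
Nr4a2: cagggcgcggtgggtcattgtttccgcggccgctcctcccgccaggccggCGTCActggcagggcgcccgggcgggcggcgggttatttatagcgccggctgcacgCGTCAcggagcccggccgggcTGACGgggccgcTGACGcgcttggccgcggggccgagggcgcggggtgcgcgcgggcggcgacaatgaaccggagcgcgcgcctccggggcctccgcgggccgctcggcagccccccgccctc
Nr4a3: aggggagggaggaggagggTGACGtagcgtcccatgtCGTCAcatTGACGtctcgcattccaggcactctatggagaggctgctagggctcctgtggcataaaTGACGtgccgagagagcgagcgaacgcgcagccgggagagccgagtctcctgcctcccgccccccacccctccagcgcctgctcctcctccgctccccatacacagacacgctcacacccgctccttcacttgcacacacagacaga
Nr4a1: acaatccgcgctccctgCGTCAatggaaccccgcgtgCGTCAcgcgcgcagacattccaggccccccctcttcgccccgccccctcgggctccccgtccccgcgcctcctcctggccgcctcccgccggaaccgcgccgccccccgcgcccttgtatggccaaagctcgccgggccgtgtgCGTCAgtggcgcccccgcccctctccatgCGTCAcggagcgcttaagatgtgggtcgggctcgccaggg
Each window held 4 matches, and none held the full TGACGTCA, which contains the core on both strands. Of all 32851 promoter windows of this length, 17.8% held at least 1 core, 0.137% held 4 or more, and 1.55% held the full element. The number of cores was thus the same in Nr4a2, which was called, and in Nr4a1, whose groups overlapped. A match of letters is a description and no evidence of binding.

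Immediate early genes are those that neurons switch on within minutes of firing, and several read lower on VE arrays without passing the test on deposited values. Arc, which controls AMPA receptor uptake at synapses, read 7.57, 7.2 and 7.44 with VE against 8.68, 7.98 and 8.45 in ob/ob vehicle and 8.09, 8.41 and 8.55 in wild type. The VE arrays lay below all others, with a change of -0.97 (SE 0.231, adjusted p = 0.0836), which passed after quantile normalization (-0.91, adjusted p = 0.0470). Fosb, an AP-1 subunit, read 7.36, 6.59 and 7.38 against 8.15, 7.83 and 8.52, with 7.49, 7.86 and 7.66 in wild type, a change of -1.06 (adjusted p = 0.0891). Egr1, a zinc finger factor used as an activity marker, read 13.52, 12.62 and 13.46 against 14.97, 13.55 and 13.79, a change of -0.90 (adjusted p = 0.266). Egr2 (-0.58) and Fos (-0.37) also had VE arrays below every ob/ob vehicle array, while Junb (-0.20), Npas4 (-0.42) and Dusp1 (-0.58) overlapped. Across the 25 measured immediate early genes 0 were called on deposited values, 4 had an unadjusted p under 0.05, all lower, and 10 had a positive change. Their median was -0.20 (like-level median -0.07), -0.06 after quantile normalization (0.02) and -0.09 without VE array 2 (0.025). For 6 of the 25 the VE arrays lay below the ob/ob vehicle arrays, against 11.9% of all probe sets. The 16 MAP kinase phosphatases and Sprouty or Spred proteins, which shut off the kinase cascade upstream of these genes, had 0 calls and a median of -0.11 (like-level -0.04), and -0.02 without VE array 2 (0.14).

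**Figure D2:**
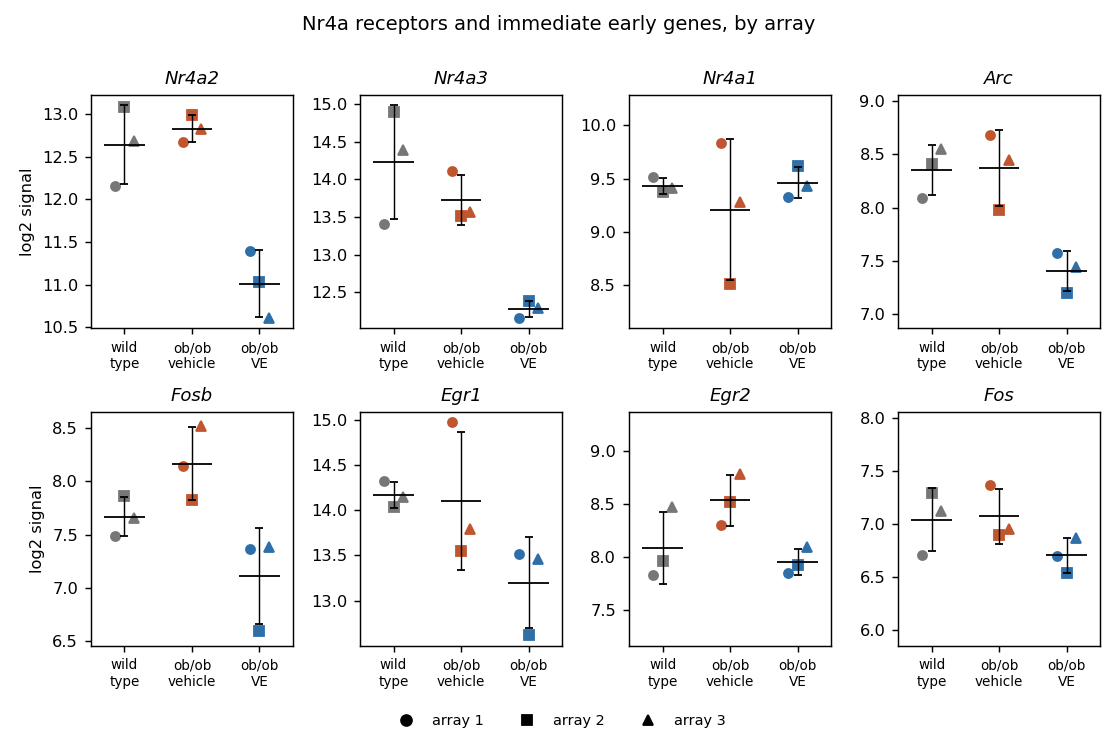
Deposited log2 signal of the 3 Nr4a receptors and 5 immediate early genes on every array; symbols give the array number, bars the group mean and whiskers 1 SD (n = 3). The 3 VE arrays lie below all other arrays for Nr4a2, Nr4a3, Arc, Fosb and Egr1, and within the range of the ob/ob vehicle arrays for Nr4a1.

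Pik3ip1 rose with VE. It encodes a membrane protein that binds and inhibits PI3 kinase, the enzyme through which insulin signals. It read 10.79, 10.88 and 11.48 on VE arrays, against 10, 9.63 and 9.07 in ob/ob vehicle and 11.17, 10.87 and 11.23 in wild type. The rise was 1.48 (SE 0.268, 2.80-fold, adjusted p = 0.0366), 1.56 after quantile normalization (adjusted p = 0.0171) and 1.57 without VE array 2 (adjusted p = 0.0130). The VE and wild-type values overlapped, with a difference of -0.04. Of 33 measured genes of insulin and PI3 kinase signalling, Pik3ip1 alone was called on deposited values, after quantile normalization and without VE array 2; the list median was 0.05 (like-level -0.03), and 0.19 without that array (0.18). The call of Pik3ip1 was lost without wild-type array 1 (adjusted p = 0.0667) and without VE array 3 (adjusted p = 0.0694). The phosphatase gene Inpp4b, which removes a phosphate from a PI3 kinase product, read 9.96, 8.70 and 10.04 against 10.69, 10.46 and 10.50, a change of -0.98 that did not pass (adjusted p = 0.167). The regulatory subunit gene Pik3r2 differed by -0.55 (adjusted p = 0.382).

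Pcdh10, a protocadherin that guides axons and trims excitatory synapses, was the other named gene that rose. It read 11.35, 10.51 and 11.05 with VE, and a narrow 9.55, 9.55 and 9.46 in ob/ob vehicle. The wild-type arrays read 11.17, 10.22 and 10.52. The rise was 1.45 (SE 0.272, 2.73-fold, adjusted p = 0.0403), 1.5 after quantile normalization (adjusted p = 0.00974) and 1.68 without VE array 2 (adjusted p = 0.0102). This call was lost without wild-type array 1 (adjusted p = 0.0581), VE array 1 (0.0717) or VE array 3 (0.0715). The remaining call in this direction was a probe set without a gene symbol.

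Further genes came close to the threshold. Scn4b, a sodium channel beta subunit abundant in striatal neurons, read 8.99, 8.54 and 8.52 against 7.55, 7.41 and 7.77, and 8.16, 7.61 and 7.75 in wild type. Its change of 1.11 (SE 0.224) had an adjusted p of 0.0504, and 0.0139 after quantile normalization. The VE arrays lay above the arrays of both other groups. Tcf7l2, a Wnt pathway transcription factor that marks thalamic neurons and maturing oligodendrocytes, read 12.50, 12.29 and 11.98 against 11.39, 10.19 and 10.85, with 13.60, 12.73 and 13.10 in wild type (change 1.45, adjusted p = 0.0592; after quantile normalization 1.54, adjusted p = 0.0300). The VE arrays thus lay between the other groups.

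Cbln2, a secreted organizer that bridges the membranes of a synapse, read 9.0, 8.98 and 9.40 against 8.24, 7.06 and 7.27 (change 1.60, adjusted p = 0.0598; 0.0221 after quantile normalization). Rorb, the nuclear receptor of cortical layer IV and thalamus, read 10.17, 9.18 and 10.21 against 8.58, 8.53 and 8.77 (1.23, adjusted p = 0.0621; 0.0102 after quantile normalization). Ptch1, the Hedgehog receptor, read a tight 9.80, 9.70 and 9.75 against 9.16, 8.41 and 8.50 (1.06, adjusted p = 0.0649; 0.0214 after quantile normalization). All 3 genes had every VE array above every ob/ob vehicle array, as 4.62% of all probe sets did. Slc25a18, a mitochondrial glutamate carrier of astrocytes, differed by 0.99, Glt8d2, a glycosyltransferase, by 0.98, and Extl2, which limits heparan sulfate synthesis, by 0.88, with adjusted p-values of 0.0540, 0.0540 and 0.0638, each of which passed after quantile normalization. Unc13c, a vesicle priming factor, differed by 1.15 (adjusted p = 0.0685; 0.0201 after quantile normalization). Tspan17, a tetraspanin, differed by 0.92 and did not pass in either (adjusted p = 0.0661 and 0.0538).

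**Figure D3:**
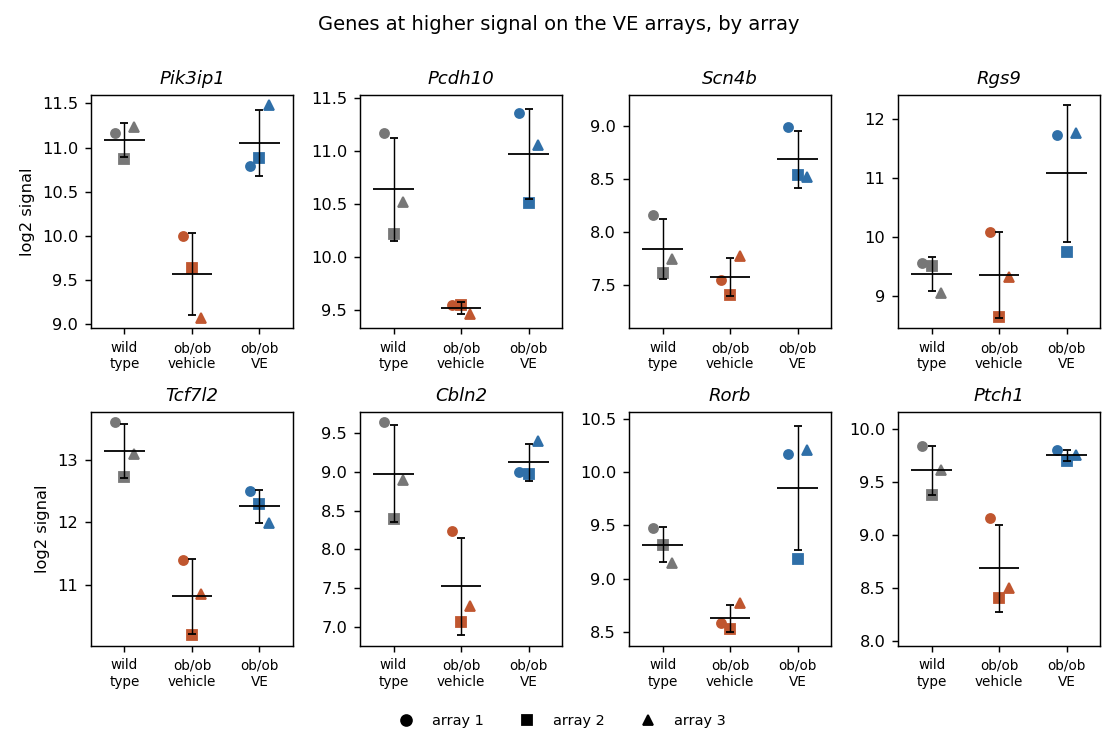
Deposited log2 signal on every array for 8 genes that read higher with VE; symbols give the array number, bars the group mean and whiskers 1 SD (n = 3). Pik3ip1 and Pcdh10 passed on deposited values. For Rgs9 and Rorb, VE array 2 lies below VE arrays 1 and 3.

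Striatal genes as a group read higher on 2 of the 3 VE arrays. Medium spiny neurons, the main cell of the striatum, express Drd1 or Drd2 dopamine receptors with Rgs9, Penk, Tac1 and Pde10a. Over 17 measured striatal genes the median change was 0.37 (like-level -0.07), and 0.43 after quantile normalization (like-level 0.02). Relative to the ob/ob vehicle mean, the list median was 0.76, -0.39 and 0.78 on VE arrays 1, 2 and 3, against 0.18, -0.17 and 0.00 on ob/ob vehicle arrays and 0.12, 0.14 and 0.05 on wild-type arrays. After quantile normalization the VE arrays stood at 0.78, -0.35 and 0.82, so VE array 2 still lay below VE arrays 1 and 3. None of the 17 was called on deposited values. After quantile normalization 3 were called higher, against 0.27% of all probe sets, and without VE array 2, where the median was 0.76 (like-level 0.03), 7 were, against 0.549%. In whole-tissue RNA, more cells of a type and more RNA per cell cannot be told apart, and the share of each region in the dissected tissue was not tested.

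Rgs9, which speeds the end of dopamine receptor signalling, read 11.73, 9.74 and 11.77 with VE against 10.09, 8.64 and 9.32, with 9.55, 9.51 and 9.04 in wild type. The change was 1.73 (SE 0.481, adjusted p = 0.124), 1.79 after quantile normalization (adjusted p = 0.0426) and 2.40 without VE array 2 (adjusted p = 0.00614). Drd1 read 7.93, 8.16 and 7.98 against 7.37, 7.06 and 7.15, and here VE array 2 was the highest of the 3 (change 0.83, adjusted p = 0.124; 0.0574 after quantile normalization). Tac1, the substance P precursor, read 12.20, 10.65 and 12.04 against 10.99, 9.99 and 10.36 (1.18, adjusted p = 0.176; 0.0426 after quantile normalization).

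Thalamic genes showed less spread between VE arrays. The median over 12 genes was 0.35 (like-level -0.03) and 0.45 after quantile normalization, with array values of 0.48, 0.29 and 0.42 for VE, 0.28, -0.11 and -0.17 for ob/ob vehicle and 0.66, 0.61 and 0.55 for wild type. None was called on deposited values and 2 were called higher after quantile normalization, against 0.27% of all probe sets. Slc17a6, the vesicular glutamate transporter VGLUT2 of thalamus and brainstem, read 9.49, 8.64 and 9.42 against 8.26, 8.26 and 8.33 (0.90, adjusted p = 0.159; 0.0470 after quantile normalization). Lef1, a Wnt effector, read 6.30, 6.43 and 5.86 against 5.27, 5.66 and 5.40 (0.75, adjusted p = 0.145). Of 20 Hedgehog and Wnt genes, which include Tcf7l2, Lef1 and Ptch1, 0 were called on deposited values and the VE arrays lay above the ob/ob vehicle arrays for 6, against 4.62% of all probe sets (median 0.19, like-level -0.06; 0.09 and -0.02 without VE array 2).

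Over 13 granule cell genes of the hippocampus the median change was -0.17 (like-level -0.03), and -0.29 without VE array 2 (0.09). Prox1, the factor that specifies dentate granule cells, read 10.30, 9.46 and 9.87 with VE, below 11, 11.43 and 10.84 in ob/ob vehicle and 10.88, 12.06 and 11.79 in wild type. The change of -1.21 (SE 0.313) did not pass (adjusted p = 0.0987; 0.0636 after quantile normalization). Among 18 interneuron genes 0 were called and the median was 0.04 (like-level -0.05), and 0.16 without VE array 2 (0.11). Gad1, which makes GABA, read 10.67, 11.05 and 10.59 against 9.90, 10.10 and 9.60 (0.90, adjusted p = 0.0893, and 0.118 after quantile normalization). Gad2 read 11.38, 10.60 and 11.37 against 10.49, 10.43 and 10.30 (0.71, adjusted p = 0.190, and 0.0457 after quantile normalization). The 13 cerebellar genes had a median of -0.10 (like-level -0.05), which turned to 0.055 (0.025) without VE array 2, with Car8 of Purkinje cells at 0.77 and Fat2 of granule cells at -0.82, neither of which passed.

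Of the 53 lists examined, 34 had a median above that of like level on deposited values and 36 after quantile normalization, and glial and vascular lists were among them, without a call on deposited values. The 13 astrocyte genes had a median of 0.30 (like-level -0.01), the 17 myelin genes 0.19 (-0.01), the 18 microglial genes 0.22 (-0.11), the 22 endothelial genes 0.17 (-0.06) and the 15 choroid plexus genes 0.23 (-0.07). The 9 oligodendrocyte precursor genes were level with theirs, at -0.06 (-0.07), and the 11 reactive astrocyte genes lay below, at -0.16 (-0.11). Without VE array 2 the medians were 0.45 (0.20) for astrocytes, 0.40 (0.18) for myelin, 0.28 (-0.01) for endothelium and 0.145 (0.03) for precursors. On VE array 2 the astrocyte and myelin medians were -0.18 and -0.10, below those of VE arrays 1 and 3, which lay between 0.32 and 0.43. After quantile normalization they were 0.26 and 0.23 on VE array 2. VE and ob/ob vehicle array medians overlapped on deposited values in the astrocyte, myelin, microglial, endothelial and choroid plexus lists. Ob/ob vehicle array 1 stood at 0.22, 0.26, 0.10, 0.06 and 0.32 in that order. The lowest VE array stood at 0.01, 0.02 and 0.19 in the last 3. Of these lists, 1 microglial gene, Olfml3, and 1 endothelial gene, Cldn5, were called higher after quantile normalization, against 0.27% of all probe sets. Olfml3, a secreted microglial protein, read 6.39, 6.19 and 6.76 against 5.60, 5.59 and 5.76 (0.80, adjusted p = 0.10; 0.0329 after quantile normalization). Cldn5, the tight junction protein of the blood-brain barrier, read 7.04, 7.46 and 7.13 against 6.46, 6.25 and 6.61 (0.77, adjusted p = 0.104; 0.0380 after quantile normalization). Wild-type myelin medians of 0.53, 1.39 and 1.15 stood above the VE medians of 0.43, -0.10 and 0.37.

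Individual glial markers differed in direction. Fgfr3, an astrocyte growth factor receptor, read 10.88, 10.50 and 11.02 against 10.49, 9.72 and 9.87 (0.77, adjusted p = 0.184). Gfap, the astrocyte filament, read 10.55, 11.17 and 9.93 against 10.91, 10.52 and 10.46, with 11.94, 12.05 and 12.11 in wild type. Its difference was -0.08 with an interval from -0.68 to 0.52. Mbp read 17.84, 14.91 and 17.69 against 17.87, 16.60 and 17.64, and its change went from -0.56 to 0.23 after quantile normalization. The choroid plexus transcript Ttr, a thyroid hormone carrier, read 19.25, 15.41 and 18.68 against 19.31, 15.10 and 18.24, so 1 array of each group was low. After quantile normalization VE array 2 read 18.37 and ob/ob vehicle array 2 still 15.44, and the change went from 0.23 to 1.23 (adjusted p = 0.310). Folr1, a folate receptor of the same tissue, read 8.16, 8.14 and 7.99 against 7.58, 7.04 and 7.28, with 8.47, 10.03 and 9.57 in wild type (0.80, adjusted p = 0.303).

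**Figure D4:**
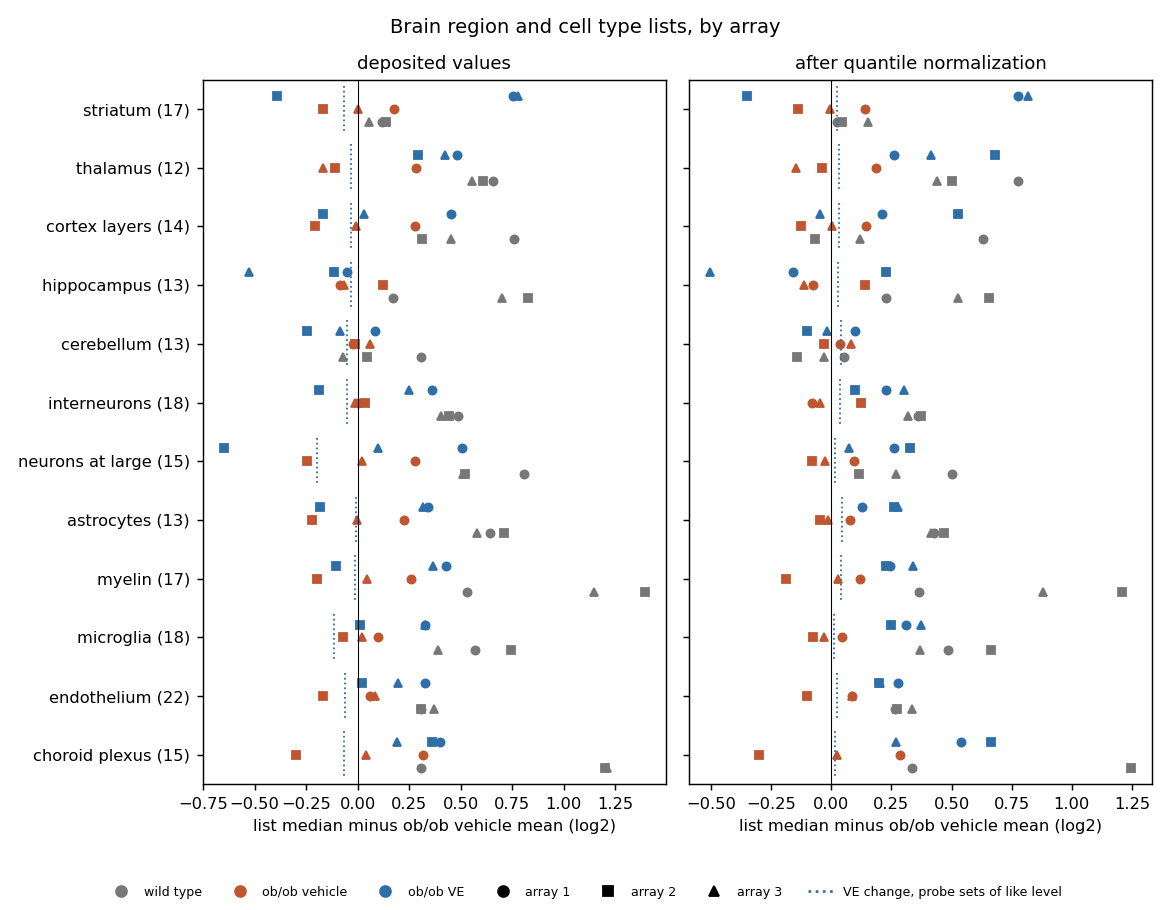
Median log2 signal of each region or cell type list on every array, relative to the ob/ob vehicle mean, on deposited values and after quantile normalization; colours give the group, symbols the array, numbers in brackets the genes measured, and dotted lines the VE change of probe sets of like level. On deposited values striatal genes sit at 0.76 and 0.78 on VE arrays 1 and 3 and at -0.39 on VE array 2. After quantile normalization VE array 2 sits at -0.35.

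Of all 108 calls, 63 were among the 2634 probe sets with no symbol and 45 among the 19572 with 1, against 0.486% of all probe sets. Many of the 45 belong to families of sensory, testis and multi-copy genes that adult brain is not known for. The 45 were made up of 14 olfactory receptors, 2 vomeronasal receptors, 1 keratin-associated gene, 5 Btbd35f genes, 2 Pramel genes, 12 predicted or clone names and 9 others. The 2 Pramel calls were among 35 measured, against 0.486% of all probe sets. Both had a change of -1.06 and an SE of 0.195, so they may stand for 1 measurement. Of 462 probe sets with predicted Gm names, 9 were called, against the same share of all probe sets. Near-identical copies can share probes: 21 called probe sets had the same values as another probe set, and the 108 held 93 distinct sets of values. Calls in these families are therefore uncertain as to which copy was measured. The families below, other than the receptor and keratin-associated ones, were picked after their values were seen.

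By the chromosome in the probe set identifier, 34 of 219 Y-linked probe sets were called (15.5%, against 0.486% of all), all lower, and these held 22 distinct sets of values. The median change over the 219 was -0.99 (like-level -0.01) and -0.95 after quantile normalization. There 100 were called, all lower, against 1.19% of all probe sets called lower in that setting. Copies with the same values count separately among these 100. Array medians relative to ob/ob vehicle were -0.83, -1.60 and -0.67 with VE, against 0.08, -0.11 and 0.02 in ob/ob vehicle and -1.01, -0.65 and -0.83 in wild type, so every VE and wild-type array lay below every ob/ob vehicle array. Both comparisons use the same ob/ob vehicle arrays. The mouse Y chromosome carries multi-copy genes of the male germ line beside a few broadly expressed single-copy genes. Sly, a multi-copy gene of spermatids, read 9.63, 9.06 and 9.89 against 11.03, 10.24 and 10.82 (-1.17, adjusted p = 0.0776; 0.0216 after quantile normalization). Ssty2, also multi-copy, differed by only -0.50 and did not pass in either (adjusted p = 0.273 and 0.231). Of the single-copy genes, Kdm5d, a histone demethylase, differed by 0.24 and Uty by -0.24 with overlapping groups, while Eif2s3y, a translation factor, read 10.18, 10.83 and 10.42 against 11.21, 11.01 and 11.19 (-0.66, adjusted p = 0.190; -0.84, adjusted p = 0.0403, without VE array 2). These genes were named after their values were seen. Calls were also frequent on chromosome 14, where 18 of 923 probe sets were called (1.95%), all lower, 2 of them with a symbol. On the X chromosome 9 of 971 were called (0.927%), all lower.

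The X-linked Btbd35f family, BTB-domain genes present in many copies, had 5 of 23 members called, all lower, against 0.473% of all probe sets. Btbd35f25 read 7.21, 6.25 and 6.69 against 8.63, 8.28 and 7.93, and fell by 1.56 (SE 0.281, adjusted p = 0.0366). The other called members were Btbd35f3 (-1.25), Btbd35f4 (-1.24), Btbd35f14 (-1.23) and Btbd35f18 (-1.06). The family median was -0.94 (like-level -0.01; after quantile normalization -0.91), with -0.74, -1.37 and -0.96 on VE arrays and -1.12, -0.78 and -0.78 on wild-type arrays. Each of the 23 had a negative change, and for 17 the VE arrays lay below the ob/ob vehicle arrays, against 11.9% of all probe sets. Ssxb1, another X-linked gene of the testis, read 5.27, 5.09 and 5.38 against 6.41, 6.10 and 6.47, and fell by 1.08 (adjusted p = 0.0366). Its wild-type arrays read 5.63, 5.59 and 5.78. All these Ssxb1 signals lay below the median level of all probe sets, 7.13, while the Btbd35f family had a median level of 8.99.

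Sensory receptor families had smaller medians below those of like level. Olfactory receptors numbered 1090, of which 14 were called, all lower, against 0.473% of all probe sets. Their median was -0.28 (like-level -0.11) and -0.18 after quantile normalization (like-level 0.01). Array medians were -0.30, -0.33 and -0.26 with VE and -0.42, -0.34 and -0.30 in wild type. The 321 vomeronasal receptors, which detect pheromones, had 2 calls, a share near that of all probe sets, and a median of -0.25 (like-level -0.10). The 49 keratin-associated genes of hair had 1 call and a median of -0.41 (like-level -0.08).

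Olfr635 had the most negative change of any called probe set. It read 8.52, 6.07 and 7.65 against 9.98, 9.64 and 9.70, with 8.37, 8.23 and 8.93 in wild type, and fell by 2.36 (SE 0.454, adjusted p = 0.0403); without VE array 2, which was the lowest, the change was -1.69. Its neighbour in name Olfr638 read 8.16, 7.52 and 8.09 against a narrow 9.50, 9.41 and 9.66 and fell by 1.60 (SE 0.213, adjusted p = 0.0334). Vmn1r121 (-1.72), Olfr1338 (-1.75) and Krtap19-1 (-1.13) fell as well. These 5 genes were picked after their values were seen. In each, the VE arrays lay below every ob/ob vehicle array, as they did for 11.9% of all probe sets. That separation follows in part from how these genes were picked.

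**Figure D5:**
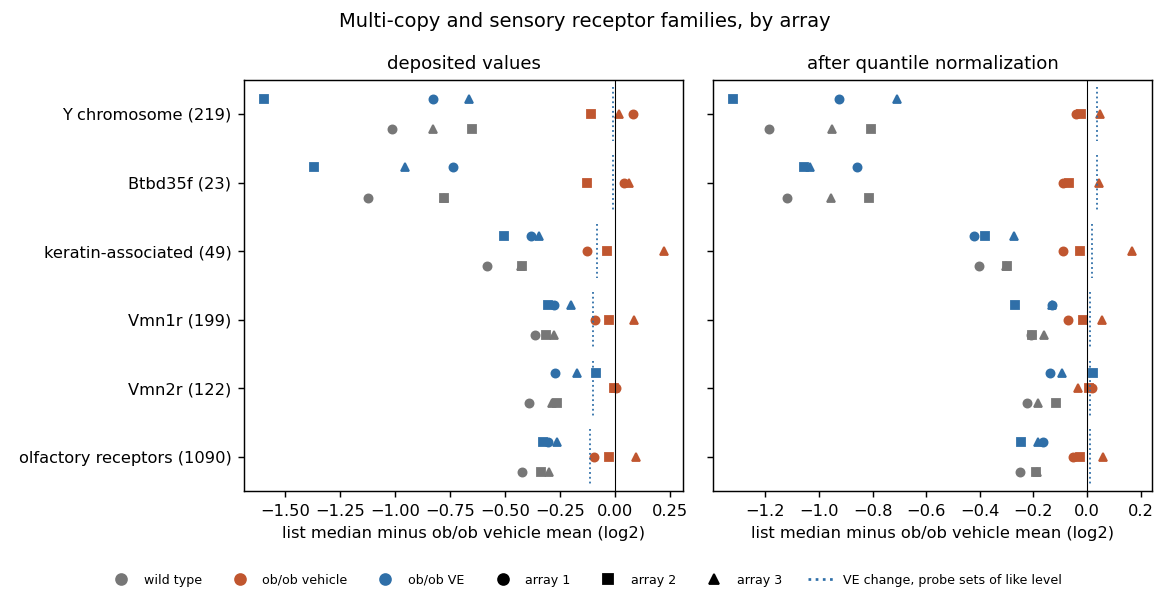
Median log2 signal of each family on every array, relative to the ob/ob vehicle mean, on deposited values and after quantile normalization; colours give the group, symbols the array, numbers in brackets the probe sets, and dotted lines the VE change of probe sets of like level. For the Y chromosome, Btbd35f, keratin-associated genes and olfactory receptors, every VE array and every wild-type array lies below every ob/ob vehicle array.

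Outside these families, 5 named genes fell with VE besides Nr4a2 and Ssxb1. Csprs, a gene of a repeated cluster, read 8.75, 8.02 and 8.63 against 9.96, 10 and 10.19 and fell by 1.58 (SE 0.235, adjusted p = 0.0334). Cndp1, a carnosine dipeptidase, read 6.36, 5.97 and 6.75 against 7.30, 7.89 and 8.14 and fell by 1.42 (adjusted p = 0.0403). Ugt2b38, a glucuronosyltransferase, read 4.32, 4.96 and 5.0 against 5.93, 6.18 and 6.19 and fell by 1.34 (adjusted p = 0.0334). Ugt2b38 thus read low, below the median level of all probe sets, 7.13, on every array. Cndp1 lay below that level on the VE arrays but above it on the ob/ob vehicle arrays. Rnase6, an antimicrobial ribonuclease of myeloid cells, read 10.84, 10.04 and 10.75 against 11.89, 11.57 and 11.89 and fell by 1.24 (adjusted p = 0.0403). Phxr4 fell by 1.18 (adjusted p = 0.0366). Against the wild-type arrays the VE arrays differed less. The differences were -0.46 for Csprs, -0.37 for Cndp1, -0.29 for Ugt2b38, -0.27 for Rnase6 and -0.71 for Phxr4. None of these was called (limma adjusted p between 0.213 and 0.650).

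Genes of energy balance were measured because leptin is missing in both groups. Of 23 genes, 0 were called and the median was -0.16 (like-level -0.07). That value rested on VE array 2: the array medians were 0.10, -0.45 and -0.11, and without that array the median was 0.02 (like-level -0.05). The melanocortin receptor gene Mc3r, which tunes feeding and fat storage, read 5.77, 6.45 and 6.09 against 6.90, 7.28 and 7.47, with 6.36, 6.22 and 6.01 in wild type. Its change of -1.11 (SE 0.234) missed the threshold on deposited values (adjusted p = 0.0587) and passed after quantile normalization (-1.03, adjusted p = 0.0411). Mc4r, the other hypothalamic melanocortin receptor, differed by -0.53 (adjusted p = 0.333). Lepr, the leptin receptor, read 7.0, 6.95 and 7.11 against 6.68, 6.68 and 6.93, a difference of 0.26 with an interval from -0.14 to 0.66. The hunger peptide Npy differed by -0.01 (interval -0.71 to 0.69), the satiety precursor Pomc by -0.20 (-0.95 to 0.56), Cartpt by -0.29 (-0.70 to 0.12) and the leptin-induced inhibitor Socs3 by 0.03 (-0.39 to 0.44). Changes within these intervals are compatible with the values of 3 arrays a group, and the intervals are not limits of detection. The smallest change called for any probe set was 1.01 in size, so smaller changes outside these intervals could also have gone uncalled.

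Channel and receptor genes are described by family. Glra3, a glycine receptor subunit, read 9.33, 8.54 and 9.39 against 8.33, 7.76 and 7.98 (1.06, adjusted p = 0.123; 0.0407 after quantile normalization). Cacng2 (stargazin), which carries AMPA receptors to synapses, read 11.99, 11.51 and 11.77 against 11.20, 10.78 and 10.71 (0.86, adjusted p = 0.105; 0.0375 after quantile normalization). The 20 GABA and glycine receptor genes had a median of 0.09 (like-level -0.11), the 27 glutamate receptor genes -0.18 (-0.03) and the 39 potassium channel genes 0.08 (-0.03), with 0 calls in any of them on deposited values. Without VE array 2 the medians were 0.32 for GABA and glycine receptors and 0.11 for glutamate receptors, a turn of sign, with a like-level value of 0.20 for both, and 0.27 for potassium channels (0.18). Kcnj10, the astrocyte potassium channel, read 10.88, 10.56 and 10.90 against 10.43, 9.84 and 9.86 (0.74, adjusted p = 0.151). St6galnac5, which makes complex gangliosides, read 12.76, 12.49 and 12.41 against 13.56, 13.67 and 13.74 (-1.10, adjusted p = 0.0588), and 14.11, 14.92 and 14.76 in wild type. Its adjusted p was 0.101 after quantile normalization and 0.0342 without VE array 2.

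Metabolic and stress pathways, which polyphenols are often tested on, had no calls on deposited values in the lists examined. The 28 antioxidant genes had 0 calls and a median of 0.13 (like-level -0.03), and 0.25 without VE array 2 (0.15). Catalase (Cat), which breaks down hydrogen peroxide, read 10.76, 10.32 and 10.35 against 9.79, 9.88 and 10.04, with 11.23, 11.38 and 11.05 in wild type, and its difference of 0.57 (SE 0.204) did not pass (adjusted p = 0.237). The Nrf2 targets Nqo1 and Hmox1 differed by 0.21 (interval -0.33 to 0.75) and 0.12 (-0.33 to 0.57). The 27 genes of inflammation and NF-kB had 0 calls and a median of -0.01 (like-level -0.08; -0.03 and -0.12 without VE array 2), with Ccl5 at -0.82 and Ccl3 at -0.77, chemokines at low signals between 4.32 and 5.54 whose VE arrays lay below every ob/ob vehicle array. The 22 interferon genes had 0 calls and a median of -0.06 (like-level -0.07; -0.02 and -0.10 without VE array 2), and 10 had a positive change. Ifit2, which interferon induces, differed by 0.81 (adjusted p = 0.0999) and passed after quantile normalization (0.96, adjusted p = 0.0340). Ifitm3, also interferon induced, differed by 0.87 (adjusted p = 0.102; 0.0504 after quantile normalization), and Usp18, which limits interferon signalling, by -0.81 with overlapping groups (adjusted p = 0.241).

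Glucocorticoid targets had a median of -0.37 over 19 genes (like-level -0.07) -0.19 after quantile normalization (0.02) and -0.23 without VE array 2 (0.15), with array medians of -0.01, -0.66 and -0.35 and 0 calls. Fkbp5, a chaperone that glucocorticoids induce, read 13.46, 12.38 and 13.12 against 13.59, 13.40 and 13.42 (-0.48, interval -1.04 to 0.07). Nr3c2, the mineralocorticoid receptor, read 11.30, 10.76 and 11.09 against 11.63, 12.13 and 12.31 (-0.97, adjusted p = 0.184). The 21 clock genes had 0 calls, a median of 0.06 (like-level -0.03; 0.25 and 0.18 without VE array 2) and 14 positive changes. Of these genes, Rorb (1.23) passed after quantile normalization and without VE array 2 (1.56, adjusted p = 0.00441), while the core clock repressor Per2 differed by -0.71 (adjusted p = 0.158). Oxidative phosphorylation (55 genes) and ribosomal proteins (50 genes) had medians of 0.09 (like-level -0.03) and -0.01 (-0.20), and 0.37 and 0.36 without VE array 2, where the like-level median was 0.20 for both. On that array they were -0.56 and -0.78, against 0.16 to 0.58 on VE arrays 1 and 3. Mme (neprilysin), which degrades amyloid peptide, read 7.59, 6.96 and 7.77 against 6.33, 5.84 and 6.55 (1.20, SE 0.273, adjusted p = 0.0710; 0.0201 after quantile normalization).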

How the data were processed

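Total RNA from mouse brain was labelled and hybridised to Clariom S arrays, 3 per group. The authors deposited log2 signals per probe set, normalized by SST-RMA in Transcriptome Analysis Console 4.0.2, per the series' design text; array files were not used here. The design text names a detection cutoff; detection calls were not used here. The genome build is not given in the sources used here.

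From these values limma 3.58.1 (R 4.3.3) fitted group means over all 9 arrays, with 6 residual and 7.03 prior degrees of freedom, and tested VE minus ob/ob vehicle with Benjamini-Hochberg adjustment over 22206 probe sets (adjusted p under 0.05). The script was tested on simulated data. A gene is the probe set with 1 symbol and the highest mean; 19572 probe sets had 1 symbol and 2634 none. Lists are described, not tested, beside probe sets of like mean level (20 bins). Genes were named by rule: up to 12 calls each way, filled by smallest p among brighter probe sets, up to 3 per list, and fixed key genes; predicted, olfactory, vomeronasal and keratin-associated genes were only counted unless said. The members and lists were chosen with earlier results of these data known. Alternatives covered normalization, samples, weights, filters, the call rule and each array left out. The number of arrays limits the precision. The main fit did not pair samples by replicate number, and the array titles do not say what these numbers stand for. The design text also names a 50 mg/kg dose, not analysed here.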

Additional observations from a re-analysis of the deposited data

How the results depend on the processing

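The 108 calls became 324 with quantile normalization, 71 with arrays centred on their medians, 376 with cyclic loess, 297 with arrays scaled to equal SD, 418 with quantile normalization without VE array 2, 225 with trend and robust moderation, 3307 with array weights, 180 among probe sets above the median level, 0 with probe sets of 1 symbol, 0 with the 2 compared groups alone, 2962 under the rule of the design text (unadjusted p under 0.05 and a fold over 1.1) and 433 at an adjusted p under 0.1. With the replicate number as a block there were 144, of which 104 were shared, and same-numbered VE and ob/ob vehicle arrays correlated at 0.33, 0.22 and -0.02 in their deviations. An analysis of 1 probe set per distinct set of values, added after seeing the data, gave 85. Leaving out each array in turn gave 0 to 403. Why the counts differed between settings was not tested. Among scalings the median over all probe sets ranged from -0.07 to 0.06. Higher calls were 18.5% of calls after quantile normalization, 12.7% with centred arrays, 17.3% with cyclic loess and 26.6% with equal SD, against 2.78%. The sign reversed for Npy, Bdnf, Gfap, Mbp and Uty, none of them called: Npy was 0.018 (quantile), 0.11 (centred), 0.11 (equal SD), 0.29 (quantile without VE array 2) and 0.28 (array weights), Bdnf 0.043 (quantile without VE array 2) and 0.18 (array weights), Gfap 0.043 (centred) and 0.11 (equal SD), Mbp 0.23 (quantile), 0.33 (quantile without VE array 2) and 0.29 (array weights), and Uty 0.17 (array weights). With 1 array left out in turn, changes ranged from -0.10 to 0.57 for Nr4a1, -0.34 to 0.45 for Npy, -0.59 to 0.22 for Pomc, -0.015 to 0.06 for Socs3, -0.38 to 0.17 for Bdnf, -0.39 to 0.23 for Gfap, -1.07 to 0.40 for Mbp, -0.995 to 1.42 for Ttr, -0.027 to 0.24 for Hmox1 and -0.44 to 0.09 for Uty.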

Other observations

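Growth factor and lipid genes were not described above. The 10 insulin-like growth factor genes had a median change of 0.27 (like-level -0.03) with 0 calls. Igfbp5, which binds and holds these factors in the matrix, read 11.01, 10.98 and 10.82 with VE against 10.43, 10.02 and 10.08 in ob/ob vehicle, with 11.77, 11.14 and 11.73 in wild type (0.76, SE 0.223, adjusted p = 0.149). Vegfa, the main growth factor of vessels, read 11.96, 11.60 and 12.19 against 13.03, 12.60 and 12.79 (-0.89, adjusted p = 0.123), with no overlap between the groups. The 17 fatty acid synthesis genes had 0 calls and a median of 0.12 (like-level -0.03; 0.34 and 0.18 without VE array 2), and Scd1, the desaturase that makes oleic acid, differed by 0.58 with overlapping groups (adjusted p = 0.291). The 14 heat shock genes had 0 calls and a median of 0.22 (like-level -0.04; 0.345 and 0.19 without VE array 2).

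The 9 probe sets of the mitochondrial genome had a median change of -0.94 on deposited values and 0.00 after quantile normalization.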
